A study of Homo sapiens with 6 samples.

Results

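The mitochondrial genome encodes 13 mRNAs, and their levels were followed here in HepG2 cells with and without FN3K, the kinase that starts the removal of sugar adducts from glycated proteins. Rows of the expression table were taken where the gene name began with MT-ND, MT-CO, MT-ATP or MT-CYB. This gave 10 of 6357 rows, of which 6 belong to complex I, 1 to complex III, 2 to complex IV and 1 to complex V of the respiratory chain. HepG2 is a cell line from a human liver tumour. RNA came from 3 plates of unedited cells (WT) and 3 plates of cells in which FN3K had been knocked out with CRISPR-Cas (FN3K KO), all grown in Eagle's Minimum Essential Media with fetal bovine serum. No other treatment, time point or allele is named. How many KO clones were used is not given in the sources used here, so loss of FN3K and a property of 1 clone cannot be told apart. The p-values below measure the spread between plates.

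Mitochondrial mRNAs are copied from a small circular genome by a single polymerase as long transcripts that carry several genes. The tRNAs that lie between the coding genes are then cut out, which frees the mRNAs, and most of the mRNAs receive a poly(A) tail. MT-ND6 is read from the opposite strand to all the other mRNAs. The proteins are core subunits of 4 enzymes of oxidative phosphorylation, namely NADH dehydrogenase (complex I), the cytochrome bc1 complex (complex III), cytochrome c oxidase (complex IV) and ATP synthase (complex V). Each of these enzymes also needs subunits encoded in the nucleus.

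The values are FPKM, that is, fragments scaled by transcript length and by the size of the library, so a row can also rise because other RNA fell. In bulk RNA, more mitochondria, more transcripts in each mitochondrion and less of the other RNA in a cell cannot be told apart. The labels have mRNA enriched with oligo(dT) beads where the paper has total RNA, and the strand of the libraries is not given in the sources used here. FPKM summed to between 289983 and 314164 per library, and depth is unknown. FN3K itself had 27.7, 21.9 and 23.2 FPKM in WT and 0.782, 1.03 and 0.704 FPKM in KO, a log2 fold change of -3.78 (SE 0.13, limma adjusted p = 1.1e-07). Of 5 hepatocyte markers looked for, 4 had a row (AFP, APOA1, FGB and TTR, from 53.1 to 6533 FPKM), while albumin had no row. All 4 were higher in every KO library than in every WT library, which held for 23.6% of all rows. The part of this difference in the results was not tested. The median log2 fold change over all rows was -0.14, and the changes below can be read against it.

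Of the 13 mRNAs, 3 had no row of their own, and each of these overlaps a neighbour in the annotation. The bases that 2 mRNAs share are printed here in capitals, with 20 bases of sequence on either side, because they decide what the rows named MT-ATP8 and MT-ND4L can hold. The sequences are from GENCODE version 29 transcripts (GRCh38, forward strand of chrM), for chrM:8507-8592, chrM:9187-9227 and chrM:10740-10786.
MT-ATP8/MT-ATP6: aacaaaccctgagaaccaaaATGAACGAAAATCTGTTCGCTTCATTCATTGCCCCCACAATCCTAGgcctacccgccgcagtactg
MT-ATP6/MT-CO3: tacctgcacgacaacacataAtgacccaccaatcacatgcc
MT-ND4L/MT-ND4: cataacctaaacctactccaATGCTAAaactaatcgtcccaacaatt

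MT-ATP6 starts inside MT-ATP8 and shares 46 bases with it, MT-CO3 starts on the last base of MT-ATP6, and MT-ND4 starts 7 bases before MT-ND4L ends. The locus numbers of the assembly leave none free between MT-ATP8 and MT-TG, or between MT-ND4L and MT-TH. The row MT-ATP8 can therefore span up to 1625 bases, to the end of MT-CO3, and the row MT-ND4L up to 1668 bases, to the end of MT-ND4. How far the reads of MT-ATP6, MT-CO3 and MT-ND4 were counted in these rows cannot be told from the table. The transcript identifiers of all 10 rows matched the annotation.

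All 10 mitochondrially encoded mRNA rows were higher in FN3K KO than in WT cells (limma, Benjamini-Hochberg adjusted p under 0.05 over all rows), by 1.4-fold for MT-ND3 to 2.1-fold for MT-ND4L. In all 10 rows every KO library lay above every WT library. Over the whole table, 21.2% of rows were called higher, 36.5% were called lower, and 23.6% had every KO library above every WT library. The median log2 fold change of the 10 rows was 0.80, and 6.53% of all rows had a value at least as high. The calls depend on the test. With the library adjustment that the Ballgown package applies, which is the tool the study used, an ordinary linear model gave log2 fold changes between 0.38 and 0.81, and 0 of the 10 rows passed at an adjusted or an unadjusted p of 0.05. The term for this adjustment was computed here from the 6357 rows alone, so it is not the study's own fit.

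**Figure D1:**
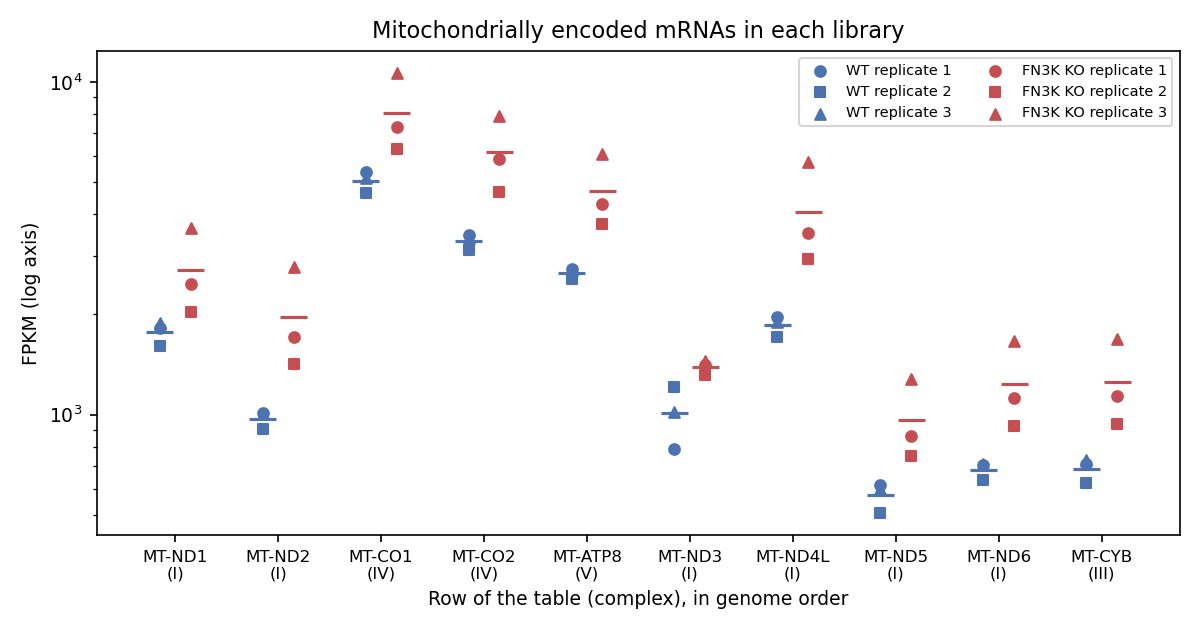
FPKM (log axis) of the 10 mitochondrially encoded mRNA rows in each of the 6 libraries, in genome order, with the complex in brackets. Points are single libraries (blue WT, red FN3K KO, shape by replicate number) and short lines are group means. The red points lie above the blue points in every row, with MT-CO1 highest and MT-ND5 lowest in both groups.

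The complex I rows hold subunits of NADH dehydrogenase, which passes electrons from NADH to ubiquinone. MT-ND1 (chrM:3307-4262), a subunit of the membrane arm beside the quinone site, had 1826, 1607 and 1885 FPKM in WT and 2462, 2038 and 3644 FPKM in KO, here and throughout in the order of replicates 1, 2 and 3. All KO libraries were above all WT libraries, with the lowest KO library, replicate 2, close to the highest WT library, and the log2 fold change was 0.57 (SE 0.19, limma adjusted p = 0.0311). MT-ND2 (chrM:4470-5511), one of the antiporter-like subunits, had 1014, 907 and 1002 FPKM in WT and 1707, 1419 and 2781 FPKM in KO. Its groups were well separated, with a log2 fold change of 0.96 (SE 0.21, limma adjusted p = 0.00467). MT-ND4L (chrM:10470-10766), a short membrane subunit, had 1970, 1717 and 1893 FPKM in WT and 3518, 2943 and 5740 FPKM in KO. It was the only one of the 10 rows past a log2 fold change of 1, at 1.07 (SE 0.22, limma adjusted p = 0.0032), and it is also the row that may hold MT-ND4.

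MT-ND5 (chrM:12337-14148), the longest of the mitochondrial mRNAs and the antiporter-like subunit at the far end of the membrane arm, had 617, 507 and 597 FPKM in WT and 866, 754 and 1280 FPKM in KO. It had the lowest level of the 10 rows in both groups and a log2 fold change of 0.72 (SE 0.18, limma adjusted p = 0.00766). MT-ND6 (chrM:14149-14673), the only mRNA on the reverse strand of the annotation, had 704, 637 and 709 FPKM in WT and 1122, 923 and 1670 FPKM in KO. The KO libraries again lay above all WT libraries, with a log2 fold change of 0.81 (SE 0.19, limma adjusted p = 0.00528). Without the strand of the reads, MT-ND6 mRNA and RNA read from the other strand over the same bases cannot be told apart.

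MT-ND3 (chrM:10059-10404), a small subunit at the junction of the membrane arm and the peripheral arm, stood apart among the 10 rows. It had 789, 1215 and 1022 FPKM in WT and 1415, 1315 and 1449 FPKM in KO. Here the WT libraries were spread widely and the KO libraries were close together, the reverse of the other rows. Replicate 2 was the highest WT library for MT-ND3, while it was the lowest for the other 9 rows. The log2 fold change of MT-ND3 was the smallest, at 0.49 (SE 0.14, limma adjusted p = 0.0184). Relative to MT-ND3, the mean log2 FPKM of the other 9 rows was 0.99, 0.19 and 0.60 in WT and 0.78, 0.63 and 1.32 in KO, and these overlapped (difference 0.32, two-sided exact permutation test, p = 0.4).

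MT-CYB (chrM:14747-15887) encodes cytochrome b, the only mitochondrially encoded subunit of complex III. It had 709, 625 and 730 FPKM in WT and 1137, 935 and 1687 FPKM in KO, with no overlap between the groups. The log2 fold change was 0.82 (SE 0.19, limma adjusted p = 0.00528). MT-CYB and MT-ND6 lie 73 bases apart on opposite strands and had nearly the same FPKM in every library. The log2 ratio of MT-ND6 to MT-CYB was -0.01, 0.03 and -0.04 in WT and -0.02, -0.02 and -0.01 in KO (two-sided exact permutation test, p = 0.7). MT-ND6 also abuts MT-ND5, with 0 bases between them, and the log2 ratio of MT-ND6 to MT-ND5 was 0.19, 0.33 and 0.25 in WT and 0.37, 0.29 and 0.38 in KO (p = 0.2, same exact test). Both ratios overlapped between the groups.

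The complex IV rows encode the catalytic core of cytochrome c oxidase. MT-CO1 (chrM:5904-7445), which binds the haems at which oxygen is reduced, had 5346, 4636 and 5136 FPKM in WT and 7301, 6284 and 10642 FPKM in KO. It was the most abundant of the 10 rows in every library, and its groups did not overlap (log2 fold change 0.65, SE 0.21, limma adjusted p = 0.0249). MT-CO2 (chrM:7586-8269), the subunit that takes electrons from cytochrome c, had 3476, 3127 and 3383 FPKM in WT and 5879, 4650 and 7884 FPKM in KO. It was second in level in every library and rose by 0.85 on the log2 scale (SE 0.19, limma adjusted p = 0.0051).

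MT-ATP8 (chrM:8366-8572) encodes a small membrane subunit of ATP synthase, and its row is the one that may also hold MT-ATP6 and MT-CO3. It had 2739, 2563 and 2715 FPKM in WT and 4292, 3734 and 6085 FPKM in KO. The KO libraries were all above the WT libraries, with a log2 fold change of 0.78 (SE 0.18, limma adjusted p = 0.00526).

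The order of the mean levels was almost the same in both groups. In WT it ran from MT-CO1 through MT-CO2, MT-ATP8, MT-ND4L, MT-ND1, MT-ND3, MT-ND2, MT-CYB and MT-ND6 to MT-ND5. The ranges over the 3 WT libraries overlapped for 3 pairs of neighbours, which were MT-ND4L with MT-ND1, MT-ND3 with MT-ND2, and MT-CYB with MT-ND6. In KO only MT-ND2 and MT-ND3 changed places, and the ranges of all neighbours overlapped. Over the 6 libraries the highest mean was 8.52 times the lowest. Levels of MT-ATP8 and MT-ND4L relative to the others depend on the length that was assigned to these rows.

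By complex, the geometric means rose by similar ratios, although single complex I rows had log2 fold changes from 0.49 (MT-ND3) to 1.07 (MT-ND4L). The geometric mean over the complex I rows was 1037 FPKM ± 39 (SD, n = 3) in WT and 1812 ± 504 in KO, a ratio of 1.75. For complex III it was 688 ± 55.7 in WT and 1253 ± 389 in KO, a ratio of 1.82. The complex IV rows went from 4095 ± 260 to 7039 ± 1924 (ratio 1.72) and the complex V row from 2672 ± 95.8 to 4704 ± 1228 (ratio 1.76). For all 4 complexes the lowest KO library was above the highest WT library.

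To ask whether the complexes moved unequally, the mean log2 FPKM of each complex was taken relative to the mean of all 10 rows of the same library, which removes the scaling of the library. On this scale the complex I rows were at -0.50, -0.46 and -0.47 in WT and at -0.48, -0.47 and -0.48 in KO. The complex III row was at -1.05, -1.13 and -1.03 in WT and at -1.02, -1.06 and -0.97 in KO. Both complexes were thus below the mean of the 10 rows in every library. The complex IV rows were at 1.56, 1.48 and 1.49 in WT and at 1.51, 1.47 and 1.47 in KO. The complex V row was at 0.90, 0.91 and 0.87 in WT and at 0.90, 0.94 and 0.88 in KO. Values overlapped between the groups for each complex. The differences, KO minus WT, were -0.00 for complex I, 0.05 for complex III, -0.02 for complex IV and 0.01 for complex V (two-sided exact permutation tests over libraries, p = 0.8, 0.4, 0.5 and 0.6, each 0.8 after adjustment over the 4 complexes). The smallest p that 3 libraries against 3 allow is 0.1, so these tests could not have passed 0.05. The mean of all 10 rows also includes the complex set against it. Complex I gives 6 of these rows, so its difference is kept small by construction.

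Summed over the 10 rows, FPKM was 19190, 17540 and 19071 in WT and 29699, 24995 and 42862 in KO. All KO libraries were above all WT libraries, with means of 18600 ± 920 (SD, n = 3) and 32519 ± 9261 and a difference of 13919 (exact permutation test over libraries, two-sided, p = 0.1, which is as low as 3 against 3 can go). As a share of all FPKM, the 10 rows held 6.38%, 6.02% and 6.55% in WT and 10.2%, 8.48% and 13.6% in KO. With the rRNA and tRNA rows included, the mitochondrial genome held 10.8%, 10% and 10.5% in WT and 15.6%, 13.1% and 20.1% in KO.

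The KO libraries differed among themselves. KO replicate 3 was the highest and KO replicate 2 the lowest of the 3 KO libraries in all 10 rows. Relative to the WT mean of the row, KO replicate 1 lay between 1.39 and 1.89 (median 1.62), KO replicate 2 between 1.15 and 1.58 (median 1.36), and KO replicate 3 between 1.44 for MT-ND3 and 3.09 for MT-ND4L (median 2.32). KO replicate 3 stood at 1.5 to 1.78 times the mean of the other KO libraries in 9 rows and at 1.06 times in MT-ND3. Over 6253 nuclear rows with a mean of at least 1 FPKM the median of this ratio was 0.993, and 2.17% of them exceeded the median of the 10 mitochondrial rows, 1.6. The mean of KO replicates 1 and 2 was still 1.27 to 1.74 times the WT mean in each of the 10 rows.

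Leaving out KO replicate 3 brought the difference in summed FPKM from 13919 down to 8747. It left 8 of the 10 rows called, with MT-ND1 at a log2 fold change of 0.34 (limma adjusted p = 0.0509) and MT-ND3 at 0.46 (limma adjusted p = 0.0563), while all 10 remained positive. Leaving out WT replicate 3 or KO replicate 1 left 7 rows called, without MT-ND1, MT-CO1 and MT-ND3. Without WT replicate 2, 8 were called, with MT-ND1 and MT-CO1 lost. In these runs the difference in summed FPKM stayed near its full value, at 14154, 15328 and 13388.

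**Figure D2:**
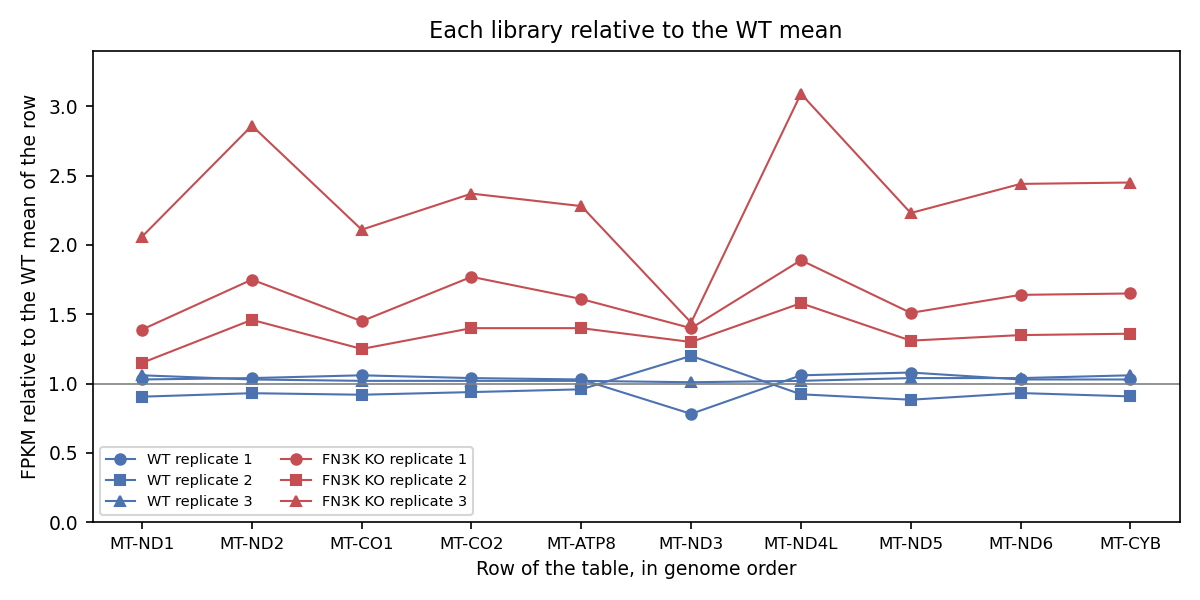
FPKM of each library divided by the WT mean of the row, for the 10 mitochondrially encoded mRNA rows in genome order, with a grey line at 1. Blue lines are WT libraries and red lines FN3K KO libraries. KO replicate 3 runs highest, up to 3.09 at MT-ND4L, and comes down to 1.44 at MT-ND3, next to the other KO libraries.

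The rRNAs are transcribed from the start of the same strand as most of the mRNAs. MT-RNR2, the large rRNA of the mitochondrial ribosome, had 4121, 3548 and 3917 FPKM in WT and 5545, 4678 and 7633 FPKM in KO. Its groups did not overlap (log2 fold change 0.60, SE 0.19, limma adjusted p = 0.0238), though the call did not hold without WT replicate 2, WT replicate 3 or KO replicate 1 (limma adjusted p from 0.0582 to 0.104) or with the library adjustment of Ballgown (0.36, adjusted p = 0.518). MT-RNR1, the small rRNA, had 3525, 2271 and 2006 FPKM in WT and 3028, 2901 and 3663 FPKM in KO, which overlapped through WT replicate 1, and it did not pass (log2 fold change 0.33, SE 0.21, limma adjusted p = 0.193). Without WT replicate 1 it did (0.58, limma adjusted p = 0.0135). The mean log2 FPKM of the 10 mRNA rows minus that of MT-RNR2 was -1.49, -1.38 and -1.40 in WT and -1.27, -1.26 and -1.21 in KO. These did not overlap, and the mRNA rows rose by 0.18 relative to MT-RNR2 on the log2 scale (same exact test, p = 0.1). Relative to MT-RNR1 the difference was 0.44 and the groups overlapped (p = 0.2, same exact test).

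The tRNA rows, short RNAs that mostly escape libraries of this kind as free molecules, were less uniform. Of 20 tRNA rows, 9 were called higher, 2 lower and 9 neither by limma, where 21.2% of all rows were higher and 36.5% lower. Log2 fold changes ranged from -0.70 to 1.03 with 0.36 as the median. MT-TF, which lies at the start of the rRNA unit, had 91.3, 67.5 and 61.9 FPKM in WT and 56, 43.4 and 49.4 FPKM in KO (log2 fold change -0.55, limma adjusted p = 0.00958). MT-TD, between MT-CO1 and MT-CO2, had 50.8, 41.3 and 48.9 FPKM in WT and 29.6, 19.2 and 40.5 FPKM in KO (log2 fold change -0.70, limma adjusted p = 0.0222). These 2 rows were the ones that fell. MT-TR, between MT-ND3 and MT-ND4L, rose the most, from 20.8, 22.7 and 22.3 FPKM in WT to 40.5, 42.5 and 55.9 FPKM in KO (log2 fold change 1.03, limma adjusted p = 8.1e-05). These 3 tRNAs were singled out after their values were seen.

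**Figure D3:**
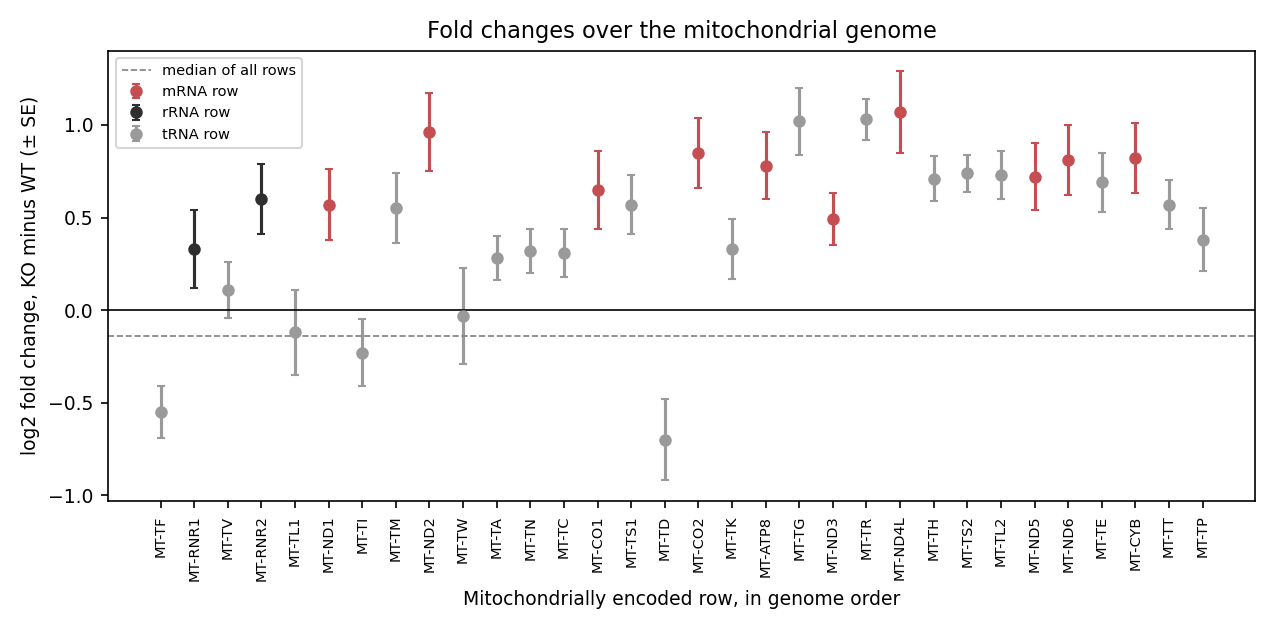
Log2 fold change, KO minus WT, with its SE from limma, of the 32 mitochondrially encoded rows in genome order, with mRNA rows in red, rRNA rows in black and tRNA rows in grey. A solid line marks 0 and a dashed line the median of all rows, -0.14. The 10 mRNA rows lie between 0.49 and 1.07, while tRNA rows range from -0.70 to 1.03.

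Chromosome 1 carries a near-identical copy of part of the mitochondrial genome, and 4 of its pseudogenes had rows. Reads from stretches without a difference cannot be assigned to one place by sequence alone. To show how alike they are, 60 bases of MT-CO1 (chrM:6207-6266) and of MT-ATP8 (chrM:8444-8503) are set beside the matching bases of MTCO1P12 (chr1:631377-631436) and MTATP8P1 (chr1:633613-633672), on the forward strand of GRCh38 from GENCODE version 29 transcripts, with differing bases in capitals.
MT-CO1: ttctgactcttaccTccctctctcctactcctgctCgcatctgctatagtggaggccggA
MTCO1P12: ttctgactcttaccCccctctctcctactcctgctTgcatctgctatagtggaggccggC
MT-ATP8: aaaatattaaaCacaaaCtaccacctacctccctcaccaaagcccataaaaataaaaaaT
MTATP8P1: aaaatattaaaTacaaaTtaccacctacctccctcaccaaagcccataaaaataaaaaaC

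Over the aligned length, MTCO1P12 differed from MT-CO1 at 20 of 1542 bases (98.7% identity), with an identical run of up to 245 bases. MTATP8P1 differed from MT-ATP8 at 5 of 207 bases (97.6%), MTCO2P12 from MT-CO2 at 12 of 682 (98.2%) and MTND1P23 from MT-ND1 at 7 of 365 (98.1%). All 4 copies were also called higher in KO by limma, where 21.2% of all rows were. All 4 calls were lost with the library adjustment of Ballgown (adjusted p from 0.242 to 0.466). MTCO1P12 had 411, 326 and 327 FPKM in WT and 654, 454 and 734 FPKM in KO (log2 fold change 0.77, limma adjusted p = 0.00444). MTATP8P1 had 262, 223 and 235 FPKM in WT and 533, 373 and 743 FPKM in KO (1.14, limma adjusted p = 0.00157). The other two, MTND1P23 and MTCO2P12, had log2 fold changes of 0.92 and 0.82 (limma adjusted p = 0.00255 and 0.00843). FPKM of the copy was 6.37% to 8.96% of that of MT-CO1, 8.66% to 12.4% of that of MT-ATP8, 2.24% to 3.95% of that of MT-ND1 and 0.055% to 0.0823% of that of MT-CO2. Which of the 2 places such reads came from was not tested. These shares hold only what was assigned to each row, so how far the 4 mitochondrial rows and their copies are uncertain is not known.

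The end of an mRNA matters where libraries are made by capture of poly(A), and mitochondrial mRNAs are unusual in that the tail often supplies the end of the stop codon. Of the 13 mRNAs, 6 end within a codon in the annotation, among them 4 of the 10 rows, MT-ND1, MT-ND2, MT-ND3 and MT-CYB. The last 24 bases of 3 of the rows are shown to illustrate this, on the strand of the gene and from the same annotation, with the stop codon or the part of it that the genome encodes in capitals. They are MT-ND1 (chrM, forward strand), MT-CYB (chrM, forward strand) and MT-ND6 (chrM, reverse strand).
MT-ND1: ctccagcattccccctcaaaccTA
MT-CYB: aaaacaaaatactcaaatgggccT
MT-ND6: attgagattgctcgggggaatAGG

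MT-ND1 and MT-CYB need the tail to complete their stop codon, and MT-ND6 ends in a complete codon. MT-ND6 mRNA is known for having little or no tail, and its row had nearly the level of the MT-CYB row in every library, as given above.

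The nuclear genome encodes the machinery that transcribes and matures these mRNAs. Over 29 rows for mitochondrial transcription, RNA processing and stability, mtDNA replication and translation, 1 was called higher and 10 lower, with a median log2 fold change of -0.22, against -0.14 for all rows. Over all rows 21.2% were called higher and 36.5% lower. The share of these rows that fell was close to that of all rows, while the share that rose, 1 of 29, was smaller. With the library adjustment of Ballgown the counts were 0 higher and 5 lower. Genes on these lists and on those below that had no row are not part of the counts.

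Transcription had 4 rows, of which 2 fell and 0 rose (limma, with the same counts at an unadjusted p of 0.05, and 1 lower and 0 higher with the adjustment of Ballgown), beside 36.5% of all rows that fell. TFB2M, which opens the mitochondrial promoter, had 14.4, 14.9 and 14.8 FPKM in WT and 10.9, 11.5 and 11 FPKM in KO, with no overlap (log2 fold change -0.37, SE 0.07, limma adjusted p = 0.00163). POLRMT, the mitochondrial RNA polymerase, had 12.1, 11 and 10.9 FPKM in WT and 8.91, 10.5 and 9.01 FPKM in KO (-0.24, limma adjusted p = 0.0491). That call held only with rows under a mean of 1 FPKM removed and without KO replicate 2, and was lost in every other alternative run, the replicate block (limma adjusted p = 0.0694) and both other scalings included (adjusted p from 0.0563 to 0.345). TFAM, which packages mtDNA and bends the promoter, overlapped between the groups (-0.09, limma adjusted p = 0.564).

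Among 10 rows for RNA processing and stability, 3 fell and 0 rose (limma, with 4 lower and 0 higher at an unadjusted p of 0.05, and 2 lower and 0 higher with the adjustment of Ballgown), beside 36.5% of all rows that fell. LRPPRC, which holds mitochondrial mRNAs stable and helps their polyadenylation, had 67.7, 75.6 and 73.3 FPKM in WT and 45.3, 45.8 and 42.3 FPKM in KO. Its groups were far apart (log2 fold change -0.69, SE 0.06, limma adjusted p = 2.7e-05). SLIRP, its partner, overlapped between the groups, with 27.5, 42.2 and 38.3 FPKM in WT and 36.4, 42 and 44.9 FPKM in KO (0.20, limma adjusted p = 0.252). SUPV3L1, the helicase of the complex that degrades mitochondrial RNA, fell by 0.46 on the log2 scale (SE 0.10, limma adjusted p = 0.00444), and PNPT1, the nuclease of that complex, was at -0.22 (limma adjusted p = 0.234). GRSF1, a protein of the mitochondrial RNA granules, was at -0.66 (SE 0.19, limma adjusted p = 0.0139).

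Of 9 rows for mtDNA replication and nucleotide supply, 4 fell and 0 rose (limma, with 6 lower and 0 higher at an unadjusted p of 0.05, and 1 lower and 0 higher with the adjustment of Ballgown), beside 36.5% of all rows that fell. The 4 were SLC25A36, a carrier of pyrimidine nucleotides (-0.96), LONP1, a protease of the matrix (-0.87), C10orf2, the Twinkle helicase that unwinds mtDNA (-0.81), and TOP1MT, the mitochondrial topoisomerase (-0.72), with limma adjusted p from 1.9e-05 to 0.0103. Of 6 rows for translation, OXA1L, which inserts the new proteins into the inner membrane, rose (0.20, limma adjusted p = 0.00969) and TUFM, an elongation factor, fell (-0.29, limma adjusted p = 0.00106). Among all rows 21.2% rose and 36.5% fell.

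Among 7 regulators of mitochondrial biogenesis, 1 rose and 4 fell (limma), where 21.2% of all rows rose and 36.5% fell. With the adjustment of Ballgown the counts were 0 and 1, or 2 and 3 at an unadjusted p of 0.05. PPARGC1A, a coactivator of respiratory genes, had 8.05, 9.08 and 8.79 FPKM in WT and 2.75, 3.04 and 2.67 FPKM in KO. This was the lowest log2 fold change of the list, at -1.33 (SE 0.12, limma adjusted p = 2.5e-05). The deacetylase SIRT1 (-0.58), GABPB1, part of a transcription factor of respiratory genes (-0.47), and PPRC1, a relative of PPARGC1A (-0.41), also fell, and the nuclear receptor PPARD rose (0.47), with limma adjusted p from 0.00193 to 0.00992.

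Of 49 rows for nuclear subunits of the same 4 complexes, 18 were called higher and 11 lower, with a median log2 fold change of 0.10. The shares over all rows were 21.2% higher and 36.5% lower. With the libraries scaled to a common 75th percentile the counts were 20 higher and 6 lower, with a common nuclear sum 20 and 5, and with the adjustment of Ballgown 6 and 0. Summed FPKM of these rows was 2193, 2352 and 2356 in WT and 2332, 2371 and 2380 in KO, which overlapped (difference 60.5, two-sided exact permutation test, p = 0.4). The mean log2(FPKM + 1) of the 10 mitochondrial rows exceeded that of the 49 nuclear rows by 5.61, 5.34 and 5.49 in WT and by 6.07, 5.83 and 6.61 in KO. These did not overlap, and the gap was 0.69 wider in KO (p = 0.1, the smallest possible, same exact test).

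**Figure D4:**
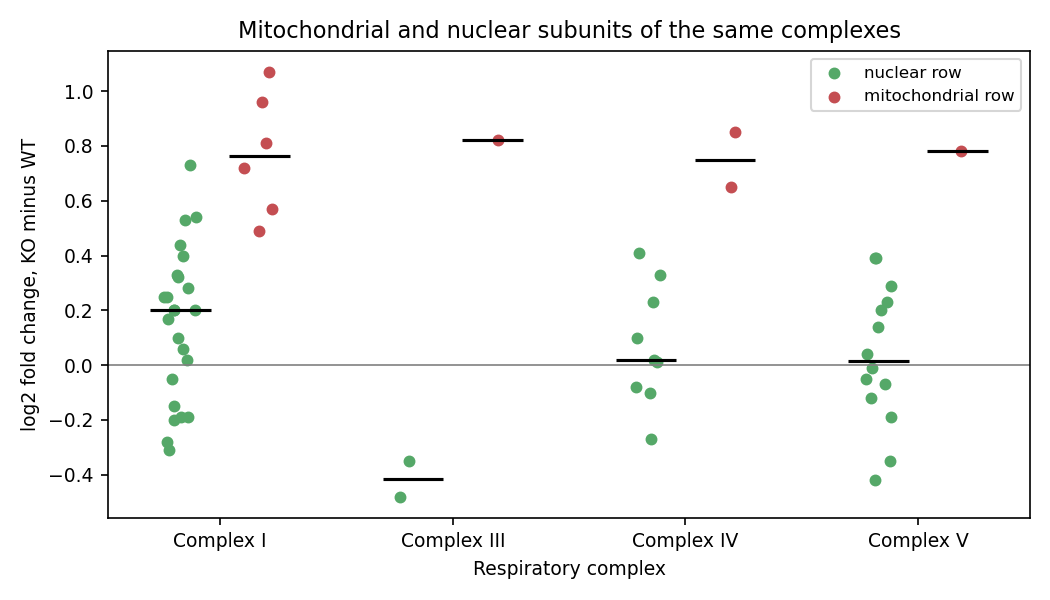
Log2 fold change, KO minus WT, from limma for nuclear rows (green) and mitochondrial rows (red) of complexes I, III, IV and V, 1 point per row, spread sideways for clarity, with black lines at the medians. The mitochondrial rows lie between 0.49 and 1.07 in each complex, and the nuclear rows between -0.48 and 0.73.

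Complex I had 24 nuclear rows, of which 12 rose and 6 fell, with a median log2 fold change of 0.20. The highest were accessory subunits, NDUFA3 (0.73), NDUFB1 (0.54) and NDUFA1 (0.53), with limma adjusted p of 0.0391, 0.00585 and 0.00976. NDUFA3 overlapped between the groups, with 2.42, 2.92 and 4.09 FPKM in WT and 8.86, 5.43 and 3.87 FPKM in KO. Its call did not hold without KO replicate 1 (0.45, limma adjusted p = 0.143). It was also lost without KO replicate 2, WT replicate 1 or WT replicate 2 (limma adjusted p from 0.0849 to 0.118). Nor did it hold without the variance trend (limma adjusted p = 0.0715) or with the adjustment of Ballgown (adjusted p = 0.356). The lowest were the accessory subunits NDUFB5 (-0.31) and NDUFA10 (-0.28) and the core subunit NDUFS8 (-0.20), with limma adjusted p of 0.0412, 0.00753 and 0.0148. The calls of NDUFB5 and NDUFS8 did not hold with either other scaling (limma adjusted p from 0.0602 to 0.137). With the adjustment of Ballgown, 3 of the 24 complex I rows rose and 0 fell. By limma, 21.2% of all rows rose and 36.5% fell.

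Complex III had 2 nuclear rows, of which UQCRFS1, the Rieske iron-sulfur protein, fell (-0.35, limma adjusted p = 0.00445) and UQCRB was at -0.48 (limma adjusted p = 0.178). Complex IV had 9, with 3 higher, COX7A2 (0.41), COX6B1 (0.33) and COX6C (0.23), and 1 lower, COX5A (-0.27), all supernumerary subunits around the catalytic core (limma adjusted p from 2.2e-04 to 0.0164). Of 14 rows of complex V, 3 rose and 3 fell, and the genes for the c-ring of ATP synthase were among both, with ATP5G1 at 0.39, ATP5G3 at 0.39 and ATP5G2 at -0.42 (limma adjusted p = 7.1e-04, 0.00574 and 0.00118). ATP5H (0.23) and ATP5F1 (-0.35) of the peripheral stalk and ATP5A1 (-0.19) of the catalytic head were the others, with limma adjusted p from 8.9e-04 to 0.0244. Complex II has no mitochondrially encoded subunit, and of its 3 rows SDHB, the iron-sulfur subunit, fell (-0.17, limma adjusted p = 0.0354). The calls of ATP5A1 and SDHB did not hold with either other scaling (limma adjusted p from 0.0556 to 0.263). That of ATP5H was lost without the variance trend (limma adjusted p = 0.0636). It was also lost without WT replicate 1, WT replicate 2, KO replicate 1 or KO replicate 3 (limma adjusted p from 0.0635 to 0.0825). COX6C was not called without WT replicate 3 or KO replicate 1 (limma adjusted p = 0.0592 and 0.0654). With the adjustment of Ballgown 1 row rose and 0 fell for complex IV, 2 rose and 0 fell for complex V, and 0 were called for complexes II and III. Among all rows 21.2% rose and 36.5% fell by limma.

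Among 17 rows for other abundant mitochondrial proteins encoded in the nucleus, 3 rose and 10 fell, with -0.22 as the median log2 fold change, where 21.2% of all rows rose and 36.5% fell. With the adjustment of Ballgown 1 rose and 6 fell. VDAC3 (0.60) and VDAC1 (0.29), channels of the outer membrane, and TOMM40 (0.47), the import pore, rose, with limma adjusted p from 2.2e-05 to 0.00147. HSPA9, a matrix chaperone (-0.88), PHB2, a prohibitin of the inner membrane (-0.76), and TOMM20, an import receptor (-0.60), were the lowest, with limma adjusted p from 4.7e-06 to 2.6e-05.

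The rows whose profile over the 6 libraries was most like the average of the 10 rows were sought among 4886 other named rows with a mean of at least 1 FPKM, by the root mean square difference of mean-centred log2(FPKM + 1). MT-RNR2 came first (0.0971), followed by AAMDC (0.116), BEX1 (0.145), the chromosome 1 copy MTCO2P12 (0.148) and IKBIP (0.148). AAMDC had 6.35, 5.83 and 6.57 FPKM in WT and 9.9, 9.66 and 12.9 FPKM in KO, and BEX1 had 15, 15.4 and 16.5 FPKM in WT and 31, 26.1 and 34.8 FPKM in KO. IKBIP had 8.54, 7.23 and 7.92 FPKM in WT and 12.2, 11.6 and 14.8 FPKM in KO. In all of these, as in the 10 rows, KO replicate 3 was the highest library and KO replicate 2 the lowest of the KO libraries. Because the rows were picked for a similar profile, this shared order comes with the choice and is not a separate result.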

How the data were processed

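RNA of 6 HepG2 libraries (3 WT, 3 FN3K KO, grouped by the genotype in the labels) was measured by RNA-seq. The authors mapped reads with HISAT2 and assembled transcripts with StringTie 2.0.6 on GRCh38.p5 (submitters' processing notes for the versions and build), and deposited FPKM values per assembled locus. How loci were filtered is not given in the sources used here. Whole reads were looked for in the 300 rows with the lowest means, where steps of 1 read would give repeated ratios. At most 3 rows shared a ratio to 4 digits in any of 15 pairs, so depth is unknown and no counting interval is given.

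KO was compared with WT over all 6357 rows by limma 3.58.1 (R 4.3.3, variance trend) on log2(FPKM + 1), with Benjamini-Hochberg adjustment and a threshold of 0.05. Fold changes on this scale understate those of low rows. Values per library were compared with two-sided exact permutation tests. The limma step was tested on simulated data. The other settings tried were scaling by the 75th percentile or by the nuclear sum, 0.1 as the pseudocount, rows with a mean under 1 FPKM removed, no variance trend, a linear model with Ballgown's library term, a replicate block, and leaving out single libraries. Named genes were all 10 members, FN3K, the 3 highest and 3 lowest called rows of each list, regulators of mitochondrial transcription and mRNA stability, and the 5 rows with the most similar profile, and any other choice is marked in the text. The members and lists were chosen with earlier results of these data known. Coordinates and sequences are those of GENCODE version 29. Tables and plots were made in Python 3.11.15 with numpy 2.4.6, pandas 2.3.3, scipy 1.17.1 and matplotlib 3.10.9.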

Additional observations from a re-analysis of the deposited data

How the results depend on the processing

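The 10 mRNA rows stayed positive under every alternative run, and 10 were called with both other scalings, with 0.1 as the pseudocount and with rows under a mean of 1 FPKM removed, 9 without the variance trend, and 7 to 10 with each library left out. With the library adjustment of Ballgown 0 were called, with adjusted p from 0.189 to 0.583. That model borrows no spread from other rows, and its library term was 15316, 15628 and 15764 in WT and 15081, 15342 and 15138 in KO. Over the whole table it still called 606 rows higher and 521 lower. The cause of the loss for the 10 rows was not tested.

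The difference in summed FPKM was 14839 and 15256 under the other scalings and 8747 to 17680 with each library left out. The contrast of complexes changed sign for complex I (-0.01 to 0.01), complex IV (-0.04 to 0.00) and complex V (-0.00 to 0.02) with libraries left out. Without the rows that overlap another mRNA it was 0.01 for complex IV and 0.09 for complex III (exact permutation test, p = 0.1, the smallest possible, against 0.05 and p = 0.4 with all rows), and complex V had no value.

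Of 29 nuclear factors of mitochondrial gene expression, 0 were higher and 5 lower with the adjustment of Ballgown, and 1 to 2 and 9 to 11 with each library left out. Of 49 nuclear subunits, those called lower numbered 6 and 5 under the 75th percentile and nuclear sum scalings, 7 without the variance trend, 0 with the adjustment of Ballgown (6 higher) and 6 to 10 with each library left out (12 to 15 higher). The lowest count, 6, was without WT replicate 2, and 7 were lower without WT replicate 3. Among single genes, PNPT1 (0.08) and MT-RNR1 (-0.25) changed sign with the adjustment of Ballgown, and TFAM ran from -0.20 to 0.00 with libraries left out, the latter without KO replicate 2. The causes were not tested.

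Deviations of same-numbered WT and KO libraries correlated at 0.01, 0.01 and 0.05, and those of differently numbered libraries at -0.05 to 0.03. Pairing by replicate number within the 10 mRNA rows was not tested. Replicate 2 was the lowest WT library in 9 of these rows and the lowest KO library in all 10. In a fit with a replicate block, 10 mRNA rows were called higher and the counts for the nuclear lists were 1 higher and 10 lower, and 19 and 10. The difference in summed FPKM was 13919 (paired exact permutation test, p = 0.25, the smallest possible), and the complex contrasts were -0.00, 0.05, -0.02 and 0.01.

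No read counts were available for depth, so the precision of low rows such as NDUFA3 and MTCO2P12 is known only from 3 libraries a group.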
